A study of Rattus norvegicus with 8 samples.

Results

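The 10 genes described here code for proteins that bring glucose into the cell, commit it to glycolysis, interconvert pyruvate and lactate, carry lactate across the plasma membrane and hold pyruvate back from the mitochondrion. They were chosen by name (Slc2a1, Hk1, Hk2, Pfkl, Pfkp, Pfkfb3, Ldha, Ldhb, Slc16a1 and Pdk1), with earlier results of these data known. Each name had 1 row, and all 10 were among the 13250 genes tested, out of 32975 rows of the count table.

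Counts of RNA-seq reads per gene were collected from primary rat nucleus pulposus (NP) cells, which form the soft centre of the disc between vertebrae, in 2 groups of 4 libraries. Per the labels, the Sirt6-Ctrl group (libraries S1 to S4, genotype SIRT6Ctrl/ShCtrl) received a control ShRNA and the Sirt6-KD group (S5 to S8, genotype SIRT6KD/ShSirt6) an ShRNA against Sirt6. The study's methods give adult Sprague Dawley rats as the source, a mixture of 3 ShSirt6 clones, and puromycin selection. All 8 cultures therefore carried a lentiviral ShRNA, and the Sirt6-KD cultures were mixed populations that kept part of their Sirt6 RNA. The labels give neither the oxygen level nor the glucose content of the medium. The methods describe hypoxic culture before the protein extraction that checked the knockdown, and do not say whether the RNA came from such cultures. The labels also do not say which Sirt6-KD library shares a rat with which Sirt6-Ctrl library, so no pairing was fitted. The p-values below weigh a group difference against the spread between libraries within each group, which includes any differences between rats.

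NP cells live in a tissue without blood vessels, at low oxygen, and are known for drawing most of their energy from glycolysis and releasing lactate. Glucose enters through facilitative transporters, is trapped by hexokinase, and is committed to glycolysis by phosphofructokinase, whose strongest activator, fructose 2,6-bisphosphate, is made by the Pfkfb enzymes. Lactate dehydrogenase then turns pyruvate into lactate, which leaves through monocarboxylate transporters, while pyruvate dehydrogenase kinases close the other route, into the mitochondrion. SIRT6 is an NAD-dependent deacylase of histones, and the comparison addresses whether genes of glucose metabolism differ when it is depleted. Many genes of this pathway are known targets of HIF-1, which binds a core of the form ACGTG or GCGTG. The study reported no difference in deoxyglucose uptake between Sirt6-KD and Sirt6-Ctrl NP cells. It also reported comparable glycolytic capacity and ATP yield. The levels below are of RNA and measure neither glucose uptake nor the rate of glycolysis. How the RNA changes relate to those measurements was not tested.

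Promoter sequence is shown for 5 of the genes, because they include the uptake, regulatory and export genes with the largest increases and both lactate dehydrogenase genes, of which Ldhb fell and Ldha did not pass the test. Each is the 250 bases before an annotated start in RefSeq on the GRCr8 assembly, written 5′ to 3′ on the gene's own strand. GRCr8 is not Rnor_6.0, the build of the deposited counts, and its coordinates were used for the sequences alone. Capitals mark ACGTG and GCGTG and their reverse complements, CACGT and CACGC, and a run of capitals can hold overlapping matches.
Slc2a1: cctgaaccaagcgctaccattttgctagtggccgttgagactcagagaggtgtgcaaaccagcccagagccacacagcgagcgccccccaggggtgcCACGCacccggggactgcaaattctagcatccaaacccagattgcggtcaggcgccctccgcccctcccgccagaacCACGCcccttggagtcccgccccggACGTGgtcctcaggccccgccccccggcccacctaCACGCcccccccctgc
Pfkfb3: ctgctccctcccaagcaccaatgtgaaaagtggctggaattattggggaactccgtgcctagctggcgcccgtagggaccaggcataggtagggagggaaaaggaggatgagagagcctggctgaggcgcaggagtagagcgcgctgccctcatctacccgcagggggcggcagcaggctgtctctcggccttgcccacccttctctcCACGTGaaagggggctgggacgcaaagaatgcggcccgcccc
Slc16a1: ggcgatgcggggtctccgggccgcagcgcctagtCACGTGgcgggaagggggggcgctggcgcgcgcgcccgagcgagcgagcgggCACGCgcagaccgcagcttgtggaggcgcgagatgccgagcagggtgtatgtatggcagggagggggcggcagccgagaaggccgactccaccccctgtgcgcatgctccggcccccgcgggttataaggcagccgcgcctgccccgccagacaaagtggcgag
Ldha: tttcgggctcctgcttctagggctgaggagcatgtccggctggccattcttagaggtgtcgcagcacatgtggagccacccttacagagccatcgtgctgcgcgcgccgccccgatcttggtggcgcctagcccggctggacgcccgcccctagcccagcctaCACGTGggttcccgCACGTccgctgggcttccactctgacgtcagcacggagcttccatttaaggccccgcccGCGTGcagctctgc
Ldhb: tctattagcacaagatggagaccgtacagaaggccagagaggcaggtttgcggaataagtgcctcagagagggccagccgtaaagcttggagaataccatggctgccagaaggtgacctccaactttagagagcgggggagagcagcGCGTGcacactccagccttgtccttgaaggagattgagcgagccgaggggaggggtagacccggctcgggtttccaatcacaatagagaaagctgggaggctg

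In order, these are the Slc2a1 window, chr5:138002272-138002521, plus strand; the Pfkfb3 window, chr17:71944683-71944932, plus strand; the Slc16a1 window, chr2:194812410-194812659, plus strand; the Ldha window, chr1:106507842-106508091, plus strand; and the Ldhb window, chr4:177177409-177177658, minus strand. In the 11 windows of the 10 genes, Hk1 having 2 annotated starts, ACGTG on either strand was found for 5 genes, which are Slc2a1, Hk1, Pfkfb3, Ldha and Slc16a1. Of 33469 RefSeq windows of the same length, from genes expressed here or not, 16.6% held it. Such shares count windows, whereas the members were counted by gene, so the 2 are not fully alike. By window, ACGTG was in 5 of the 11 and GCGTG in 7. GCGTG on either strand was found for 7 genes, against 25.9% of the windows. CACGTG, which reads the same on both strands and holds ACGTG on each, was found for Pfkfb3, Ldha and Slc16a1, against 5.59% of windows. Neither core was in the Hk2 window, and the Ldhb window held 1 GCGTG, 103 bases before the start. Ldha, which did not pass the test, had more matches to ACGTG (3, both strands counted) than any other member. Of these, 2 are the 2 strands of the same CACGTG. The letters are a description of these windows and do not show binding.

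**Figure D1:**
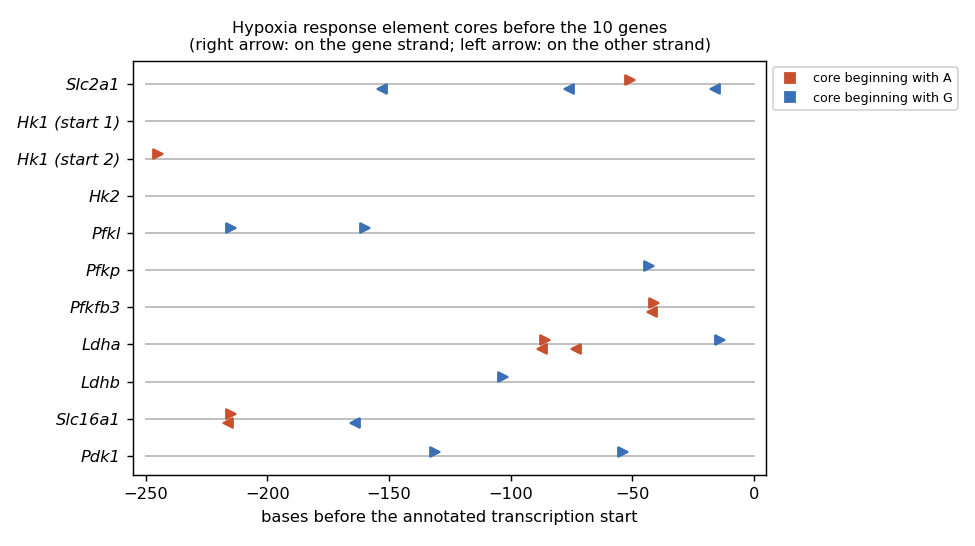
Positions of ACGTG and GCGTG in the promoter windows of the 10 genes, in bases before the annotated start (x axis, 0 at the start), with 1 row per window, both strands searched and Hk1 shown with its 2 starts. In Ldha the matches lie within 87 bases of the start and in Pfkfb3 at -42 and -41, whereas in Slc16a1 they lie at -216 to -164.

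Depth was similar across libraries, from 31994838 to 40124813 counts, so that 3 counts corresponded to 0.0727 to 0.0928 CPM (TMM-scaled counts-per-million, the measure of level used below). Sirt6 itself fell from 52.7 ± 3.78 CPM (SD, n = 4) to 20.6 ± 1.07 CPM (n = 4), and every Sirt6-KD library (19.2 to 21.8 CPM) lay below every Sirt6-Ctrl library (47.6 to 56.4 CPM; log2 fold change -1.35, SE 0.13, adjusted p = 0.000713 with edgeR). ERCC spike-ins, synthetic RNAs added to each sample, took 6.27% of the counts in S1 and 9.80% in S2, against 2.97 to 3.08% in S3 and S4 and 2.15 to 2.47% in Sirt6-KD. Of 12 NP markers, 7 had a named row, which summed to 305 to 435 CPM in the controls and 285 to 364 CPM in Sirt6-KD. Acan, the main proteoglycan of the NP, was low, at 4.54 to 55.7 CPM in Sirt6-Ctrl, and Krt8 was at 6.56 ± 3.07 CPM there and fell in Sirt6-KD (log2 fold change -1.32, adjusted p = 0.0441). Cd24, Sox9, Foxf1, Pax1 and Basp1 were not called, with log2 fold changes of -0.98 to 0.48. Krt18, Krt19, T, Shh and Col2a1 had no named row and were not analysed here. Tek, the 1 of 6 endothelial markers with a named row, stayed at or under 0.592 CPM, 2 of 7 leukocyte markers summed to 5.17 CPM at most, 2 of 6 skeletal muscle markers to 16.2 CPM at most, and none of 5 red blood cell markers had a named row. In contrast, 3 of 4 markers of annulus fibrosus and tendon summed to 13329 to 25341 CPM in the controls and 7986 to 17515 CPM in Sirt6-KD. Nearly all of it was Col1a1, with the highest sum in S4. Col1a1 was not called (log2 fold change -0.63, adjusted p = 0.150), nor was Mkx (-0.48, adjusted p = 0.456). Scx was called lower, with groups that overlapped (log2 fold change -1.20, adjusted p = 0.0490). In bulk RNA fewer cells of a type and less RNA per cell cannot be told apart. The part of these differences in the results below was not tested.

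Of the 10 genes, 6 rose in Sirt6-KD, 1 fell and 3 did not pass the test. Slc2a1, Hk1, Pfkl, Pfkp, Pfkfb3 and Slc16a1 were called higher, and Ldhb was called lower, in a test with edgeR (quasi-likelihood, adjusted p under 0.05 by Benjamini-Hochberg over all rows, and a fold change of more than 1.5). Of all 13250 genes tested, 8.02% were called higher and 10.7% lower. The same 6 genes had every Sirt6-KD library above every Sirt6-Ctrl library, which was so for 14.8% of all genes, and Ldhb had every Sirt6-KD library below every Sirt6-Ctrl library, as did 15.6% of all genes. For the 10 genes the fold changes had a median of 0.76 on the log2 scale, beside -0.02 over all genes tested. Of the 10 values, 8 were positive. Because the genes were chosen with earlier results of these data known, these counts and medians describe them and do not test the set. Hk2, Ldha and Pdk1 had groups that overlapped.

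**Figure D2:**
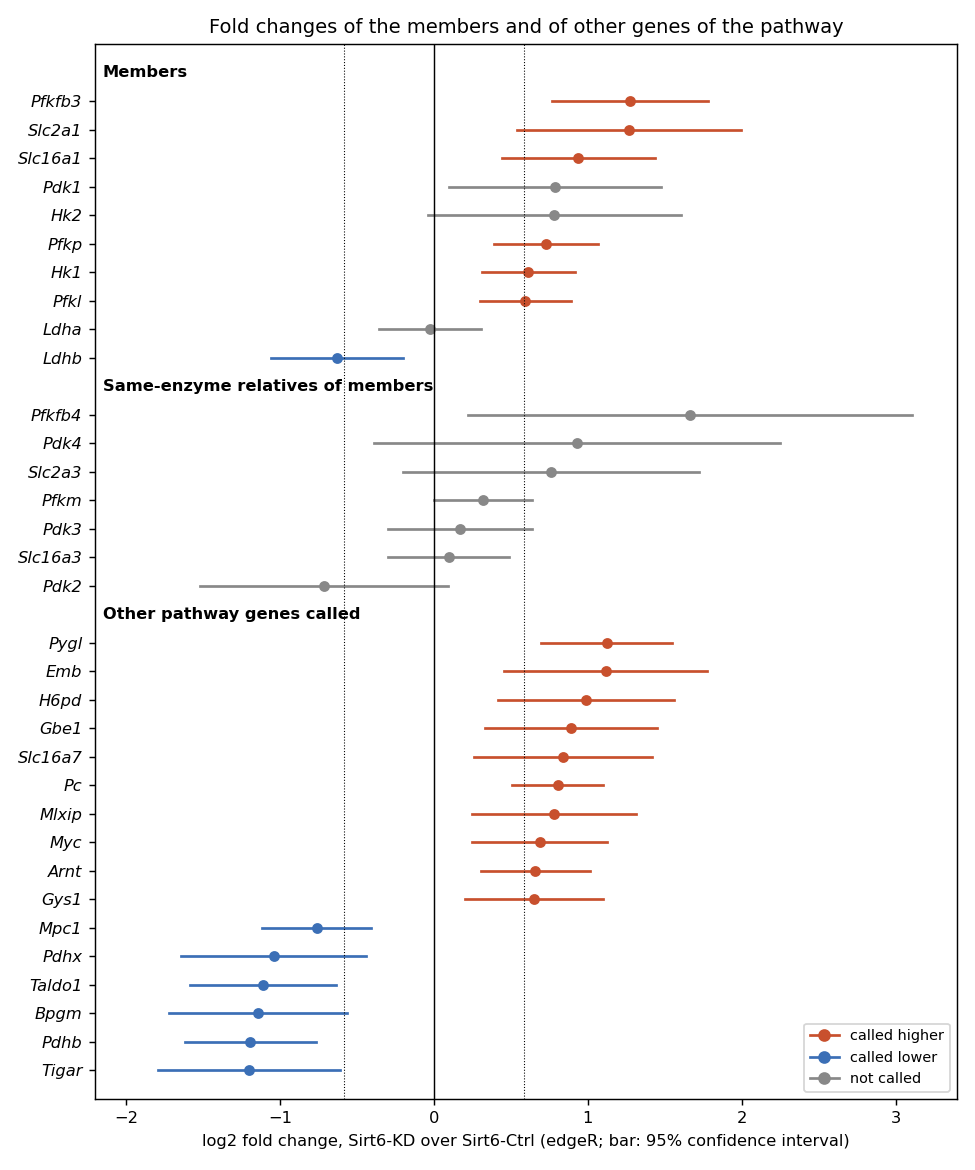
Change in Sirt6-KD relative to Sirt6-Ctrl (x axis, log2 fold change), with the 95% confidence interval of the edgeR fit, n = 4 libraries per group. Separate blocks hold the 10 genes, relatives of them from the same families, and the other called genes of glucose metabolism and its control. Among the 10 genes, Pfkfb3 (1.28) and Slc2a1 (1.27) lie farthest to the right. Ldha (-0.02) lies on the zero line and Ldhb (-0.63) lies to its left.

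Glucose uptake was represented by Slc2a1 (ENSRNOG00000007284), which codes for GLUT1, the widespread basal glucose transporter. Its level, given here and below in the order of the library numbers, was 1135, 1554, 2073 and 554 CPM in S1 to S4 and 3609, 3323, 3209 and 2650.3 CPM in S5 to S8. All 4 Sirt6-KD libraries were above all 4 controls, and S4 stood well below the other controls. The mean rose from 1329 ± 644 to 3198 ± 402 CPM, a 2.41-fold increase (log2 fold change 1.27, SE 0.33, 95% interval 0.54 to 1.99, adjusted p = 0.0225). The call rested on all of S1, S5, S6 and S7, since without any of these it was lost, with an adjusted p of 0.0598 to 0.0678 and a log2 fold change of 1.20 to 1.26. None of the 8 other glucose transporters tested passed the test, where 8.02% of all genes were called higher and 10.7% lower. All 8 were at low levels, with control means of 0.177 to 18.9 CPM. Among them Slc2a3, which codes for the high-affinity transporter GLUT3, was at 8.73 ± 4.81 CPM in the controls and 14.8 ± 3.52 CPM in Sirt6-KD (log2 fold change 0.76, 95% interval -0.20 to 1.72, adjusted p = 0.233).

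The hexokinases phosphorylate glucose in the first step of glycolysis, and the 2 members behaved unlike each other in spread. Hk1 (ENSRNOG00000046891), the constitutive form of most tissues, was at 192, 208, 266 and 192 CPM in S1 to S4, and at 338, 320.5, 332 and 323 CPM in S5 to S8. The lowest Sirt6-KD library was 1.20 times the highest control. The mean rose from 215 ± 35.2 to 328 ± 8.28 CPM, 1.53-fold (log2 fold change 0.61, SE 0.14, adjusted p = 0.0129), just past the fold threshold, and without S4 it fell short of that threshold (log2 fold change 0.56, adjusted p = 0.0247).

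Hk2 (ENSRNOG00000006116), the inducible hexokinase of muscle and tumours, was at 622, 862, 532 and 172 CPM in S1 to S4, a 5.00-fold range, and at 1037, 991, 963 and 773 CPM in S5 to S8. Its control library S2 exceeded the Sirt6-KD library S8, so the groups overlapped. The means were 547 ± 286 and 941 ± 116 CPM, and the difference did not pass the test (log2 fold change 0.78, SE 0.37, 95% interval -0.04 to 1.60, adjusted p = 0.153). That interval includes a change larger than that of Hk1. The size rested partly on S4: without it the log2 fold change was 0.48. Without both S1 and S2, the libraries with the most spike-in RNA, Hk2 was called higher (log2 fold change 1.42, adjusted p = 0.0424).

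Phosphofructokinase, the committing step of glycolysis, has 3 subunit genes, of which Pfkl and Pfkp, the liver and platelet forms, were members. Pfkl (ENSRNOG00000001214) was at 376, 459, 469 and 366 CPM in S1 to S4, and at 665, 654, 617 and 585 CPM in S5 to S8. Pfkp (ENSRNOG00000017163) was at 159, 173, 233 and 153 CPM in S1 to S4, and at 310.0, 304, 305 and 269.7 CPM in S5 to S8. Neither gene had groups that overlapped, and in both S3 was the highest control and S8 the lowest Sirt6-KD library. Pfkl rose 1.51-fold, from 418 ± 54.1 to 630.0 ± 36.5 CPM (log2 fold change 0.59, SE 0.13, adjusted p = 0.0138). Pfkp rose 1.66-fold, from 179 ± 36.5 to 297 ± 18.5 CPM (log2 fold change 0.73, SE 0.15, adjusted p = 0.0106). The Pfkp call held with any 1 library left out, whereas Pfkl, at the fold threshold, lost its call without S1, S4, S5 or S6, where its log2 fold change was 0.53 to 0.58 and its adjusted p 0.0248 to 0.0549. Pfkm, the muscle form and not a member, was at 29.9 ± 2.03 and 37.3 ± 4.06 CPM (log2 fold change 0.32, adjusted p = 0.134).

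Pfkfb3 (ENSRNOG00000018911) codes for a bifunctional enzyme that strongly favours its kinase activity, which makes the activator of phosphofructokinase. It was at 233, 228, 404 and 185 CPM in S1 to S4, and at 668, 679, 662 and 531 CPM in S5 to S8. The groups were well apart, with the lowest Sirt6-KD library 1.32 times the highest control. The mean rose 2.42-fold, from 262 ± 96.7 to 635 ± 69.7 CPM (log2 fold change 1.28, SE 0.23, 95% interval 0.77 to 1.78). Its adjusted p, 0.00626, was the smallest of the 10 genes, and the call held with any 1 library left out (log2 fold change 1.14 to 1.56). Pfkfb4, a relative at far fewer reads, was at 1.03, 0.804, 7.04 and 1.53 CPM in S1 to S4 and at 7.15 to 10.6 CPM in Sirt6-KD. It did not pass the test (log2 fold change 1.66, SE 0.65, adjusted p = 0.0916), but did so without S3 (log2 fold change 2.87, adjusted p = 0.00137).

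**Figure D3:**
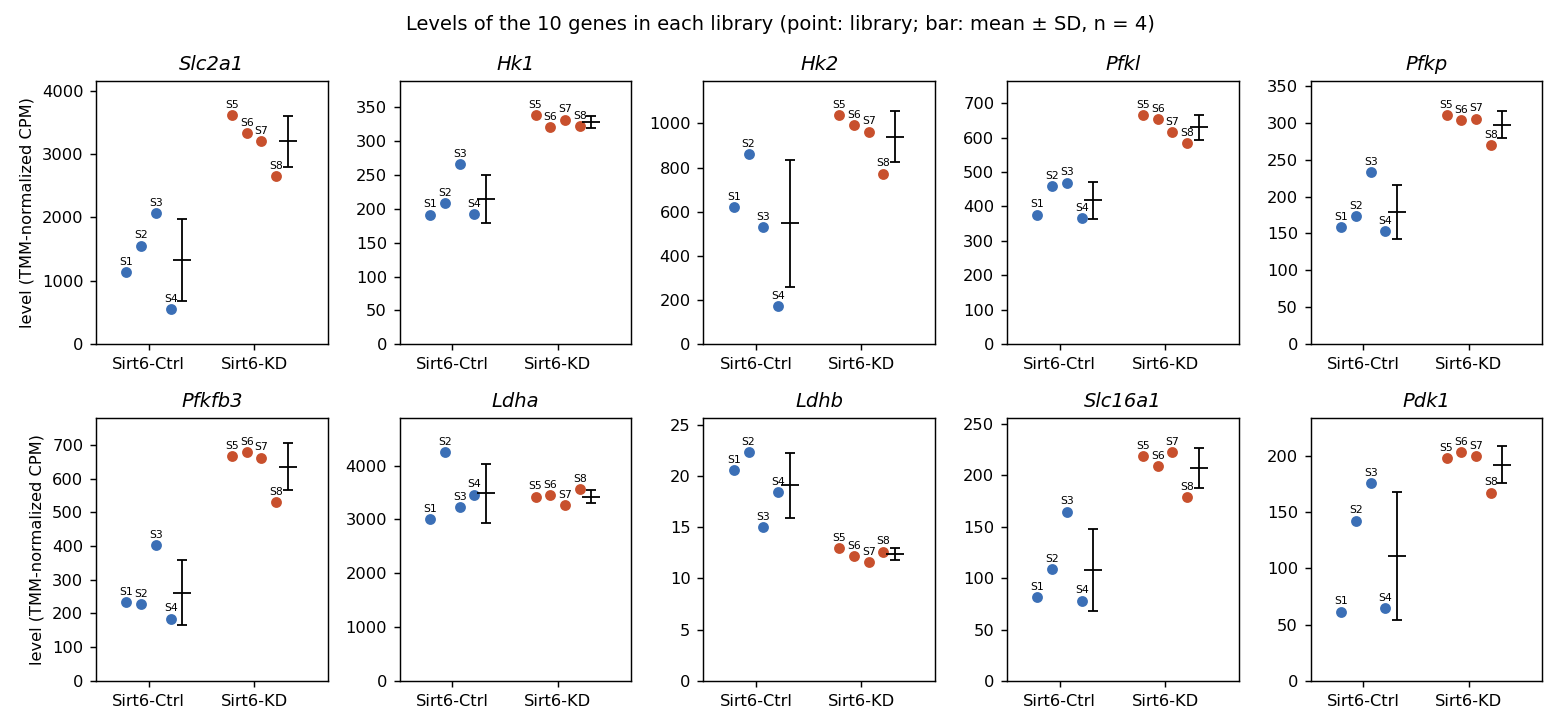
Level of each of the 10 genes in each library, in TMM-normalized CPM (y axis, linear and from 0, its range set per gene), for Sirt6-Ctrl (S1 to S4) and Sirt6-KD (S5 to S8), with points for libraries and bars for mean ± SD, n = 4. The groups do not overlap for Slc2a1, Hk1, Pfkl, Pfkp, Pfkfb3, Slc16a1 and Ldhb, and the controls are spread more widely than Sirt6-KD for all 10 genes.

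Of the lactate dehydrogenase genes, Ldhb fell and Ldha did not pass the test. Ldha (ENSRNOG00000013009), whose subunit predominates in tissues that make lactate, was at 3004, 4252, 3224 and 3460.3 CPM in S1 to S4, and at 3423, 3452, 3259 and 3567 CPM in S5 to S8. All Sirt6-KD values lay within the range of the controls. The means were 3485 ± 544 and 3425 ± 127 CPM, with a log2 fold change of -0.02 (SE 0.15, adjusted p = 0.927). The 95% interval, -0.36 to 0.31, did not reach a 1.5-fold change in either direction with these libraries and this normalization.

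Ldhb (ENSRNOG00000013000), whose subunit predominates in oxidative tissues such as heart, was at 20.5, 22.3, 15 and 18.4 CPM in S1 to S4, and at 13.0, 12.2, 11.6 and 12.6 CPM in S5 to S8. Each Sirt6-KD library was below each control, with S3 the nearest control. The mean fell from 19.1 ± 3.16 to 12.3 ± 0.589 CPM, 1.54-fold lower in Sirt6-KD (log2 fold change -0.63, SE 0.19, 95% interval -1.06 to -0.20, adjusted p = 0.0420). This was the least stable call of the 10 genes. It was lost without any library other than S3, with an adjusted p of 0.0553 to 0.119 and a log2 fold change of -0.65 to -0.53, and it was also lost with library size as the only scaling, without a filter and with a stricter filter.

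Of the monocarboxylate transporters, Slc16a1 (ENSRNOG00000019996) codes for MCT1, which carries lactate and pyruvate with a proton in either direction. It was at 81.4, 109, 165 and 78.2 CPM in S1 to S4, and at 219, 209, 223 and 179 CPM in S5 to S8. The groups did not overlap, and S3 came close to S8. The mean rose 1.92-fold, from 108 ± 40.1 to 207 ± 19.8 CPM (log2 fold change 0.94, SE 0.22, 95% interval 0.44 to 1.44, adjusted p = 0.0174). Without S1, S5, S6 or S7 the call was lost, at an adjusted p of 0.0523 to 0.0535 and a log2 fold change of 0.85 to 0.93. Slc16a3, which codes for MCT4, the lactate exporter of strongly glycolytic cells, was at 343, 412, 407 and 623 CPM in S1 to S4 and at 468 to 493 CPM in Sirt6-KD, with a log2 fold change of 0.10 (95% interval -0.30 to 0.49, adjusted p = 0.736). S4 was thus the highest control for Slc16a3 and the lowest for Slc16a1. Slc16a7, which codes for MCT2, a high-affinity carrier, rose from 14.0 ± 5.23 to 25.0 ± 0.881 CPM (log2 fold change 0.84, adjusted p = 0.0434), and Emb, which codes for embigin, a chaperone of these transporters, rose from 12.1 ± 4.86 to 26.3 ± 3.52 CPM (log2 fold change 1.12, adjusted p = 0.0249).

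Pdk1 (ENSRNOG00000001517) codes for a kinase that switches off pyruvate dehydrogenase, the gate from pyruvate to the citric acid cycle. It was at 61.5, 143, 176 and 65.1 CPM in S1 to S4, and at 198, 203, 199.7 and 167 CPM in S5 to S8. The controls fell into a low pair, S1 and S4, and a high pair, of which S3 exceeded S8. The means were 111 ± 57.1 and 192 ± 16.7 CPM (log2 fold change 0.79, SE 0.31, 95% interval 0.10 to 1.48), and the unadjusted p of 0.0287 in the edgeR fit became an adjusted p of 0.0937. Without S3 the gene was called higher (log2 fold change 1.10, adjusted p = 0.0159), and DESeq2 (adjusted p = 0.0483) and limma-voom (adjusted p = 0.0400) called it higher with all 8 libraries. Its relatives did not pass the test: Pdk2 had a log2 fold change of -0.71 (adjusted p = 0.184), Pdk3 of 0.17 (adjusted p = 0.604) and Pdk4 of 0.93 (adjusted p = 0.290).

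Shares of reads within a family need no scaling between libraries, so 6 of them were compared with an exact permutation test over the libraries (two-sided, smallest possible p 0.0286, adjusted over the 6). A share of reads is not a share of transcripts, since the genes differ in length. Ldhb took 0.679, 0.522, 0.463 and 0.530% of the lactate dehydrogenase reads in S1 to S4, and 0.351 to 0.378% in Sirt6-KD, so the groups did not overlap. The mean share was 0.549 ± 0.0922% in Sirt6-Ctrl and 0.359 ± 0.0128% in Sirt6-KD, a difference of -0.189 percentage points (exact permutation p = 0.0286, adjusted p = 0.0857). Pdk1 took 58.3, 70.2, 76.1 and 63.5% of the Pdk1 to Pdk4 reads in S1 to S4, and 76.2 to 81.3% in Sirt6-KD. Here too the groups did not overlap, although S3, the highest control, lay just below S8. The difference was 11.7 points (67.0 ± 7.77% against 78.7 ± 2.58%, exact permutation p = 0.0286, adjusted p = 0.0857).

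The remaining shares had groups that overlapped. Slc16a1 took 19.99 ± 7.24% of the Slc16a1 and Slc16a3 reads in Sirt6-Ctrl and 30.3 ± 2.49% in Sirt6-KD (exact permutation p = 0.0571, adjusted p = 0.114). Pfkp took 28.5 ± 2.39% and 30.8 ± 0.726% of the phosphofructokinase reads (exact permutation p = 0.114, adjusted p = 0.171). Pfkfb3 made up nearly all reads of its family in both groups, 94.0 ± 1.78% and 95.5 ± 0.226% (exact permutation p = 0.143, adjusted p = 0.171). Hk2 took 67.7 ± 14.8% of the Hk1 and Hk2 reads in Sirt6-Ctrl and 74.0 ± 2.34% in Sirt6-KD (exact permutation p = 0.600, adjusted p = 0.600), and in S4 alone it took the minority, 47.3%. Without S4 the difference in the Hk2 share was -0.58 points in place of 6.24. None of the 6 shares passed after adjustment, but with 4 libraries a group a share could pass only if at least 4 of the 6 were at the smallest p. The 2 shares at that p therefore could not pass.

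**Figure D4:**
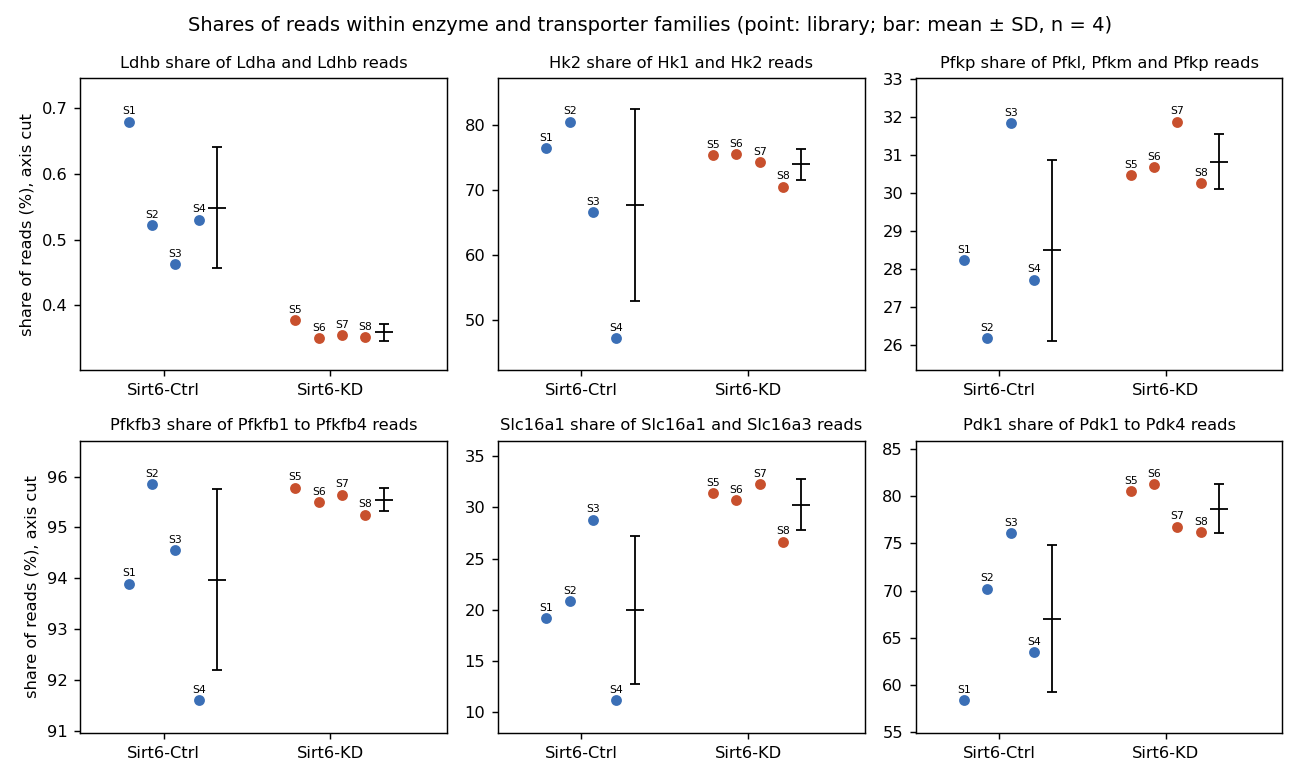
Percent of reads of each gene family taken by the named member in each library (points), with mean ± SD beside them (n = 4), for Sirt6-Ctrl (S1 to S4) and Sirt6-KD (S5 to S8), each panel with its own y axis in percent, which does not start at 0. The groups are apart for Ldhb (0.463 to 0.679% against 0.351 to 0.378%) and Pdk1 (58.3 to 76.1% against 76.2 to 81.3%) and overlap for the other 4.

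The control libraries differed widely among themselves in several of the 10 genes. S3 was the highest control for 7 members, which are the 6 genes called higher and Pdk1, and it was the control nearest to the Sirt6-KD mean for 8 of 10. S4 was the lowest control for 6 members, which are Hk2 and 5 of the 6 genes called higher. The highest control exceeded the lowest 5.00-fold for Hk2, 3.75-fold for Slc2a1, 2.86-fold for Pdk1, 2.19-fold for Pfkfb3 and 2.11-fold for Slc16a1, and by 1.28- to 1.52-fold for Hk1, Pfkl, Pfkp, Ldha and Ldhb. The coefficient of variation was wider in Sirt6-Ctrl than in Sirt6-KD for all 10 genes, at 13.0 to 52.3% against 2.52 to 12.6%. Over the whole count table, too, pairs of Sirt6-Ctrl libraries differed more than pairs of Sirt6-KD libraries. Their chi-square per degree of freedom was 110 to 397, against 17.7 to 69.1 in Sirt6-KD. The wider spread is therefore not shown to be particular to the 10 genes. Within Sirt6-KD, S8 was the lowest library for 7 members. Among the spike-in shares and marker sums, S4 had the highest annulus fibrosus and tendon sum of the controls and S8 that of the Sirt6-KD libraries, at 25341 and 17515 CPM, and whether this bears on the low members there was not tested.

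Beyond the 10 genes, 95 further genes of glucose metabolism and its control were listed, of which 81 had a named row and 78 were tested. Of the 78, 10 rose and 6 fell, and their median log2 fold change was 0.18. These are 12.8% and 7.69%, near the 8.02% and 10.7% of all genes, so the counts show nothing particular to the 78 genes, and the lists they fall into below are short. Of 13 lower glycolysis genes tested, from aldolase to pyruvate kinase, none was called higher and 1, Bpgm, which makes 2,3-bisphosphoglycerate, was called lower (34.9 ± 9.51 to 15.8 ± 4.30 CPM, log2 fold change -1.14, adjusted p = 0.0146). Pkm, the pyruvate kinase of most tissues, had every Sirt6-KD library above every control without passing the test (log2 fold change 0.40, adjusted p = 0.0573), and Gapdh was at 0.12 (adjusted p = 0.626). These and the next gene were chosen after their values were seen. Tpi1, an enzyme every glycolytic cell uses, was listed at a mean of 1.53 CPM in the controls and 1.99 CPM in Sirt6-KD. Rat genes of glycolysis have many processed copies, Ldha and Gapdh among them, and how reads that match several places were counted is not given in the sources used here, so levels of such genes are uncertain.

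Of 8 other upper glycolysis genes tested, none was called higher and 1 was called lower, beside 8.02% and 10.7% of all genes. Of the 8 log2 fold changes 7 were above 0, as were 49.1% of those of all genes. In 3 genes every Sirt6-KD library lay above every control, as in 14.8% of all genes. The gene called lower was Tigar, a phosphatase that lowers fructose 2,6-bisphosphate and so opposes Pfkfb3. Tigar was at 34.6, 23.5, 21.0 and 30.01 CPM in S1 to S4, and at 10.8, 12.4, 7.61 and 16.6 CPM in S5 to S8. Its groups did not overlap, and the mean was 2.30-fold lower in Sirt6-KD (log2 fold change -1.20, SE 0.27, adjusted p = 0.0129).

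Of 12 genes tested for pyruvate entry into the mitochondrion, Pdhb and Pdhx, which code for 2 components of the pyruvate dehydrogenase complex, and Mpc1, which codes for a subunit of the mitochondrial pyruvate carrier, were called lower (3 of 12, beside 10.7% of all genes) and none was called higher. Of the 12 log2 fold changes 5 were above 0. Pdhb was at 117, 152, 81.5 and 113 CPM in S1 to S4 and at 43.3 to 57.2 CPM in Sirt6-KD (log2 fold change -1.19, SE 0.19, adjusted p = 0.00435). Pdhx fell by 1.04 on the log2 scale (39.7 ± 16.6 to 19.3 ± 2.72 CPM, adjusted p = 0.0232) and Mpc1 by 0.76 (69.0 ± 9.96 to 40.8 ± 5.76 CPM, adjusted p = 0.0109). In all 3 genes every Sirt6-KD library lay below every control, as in 15.6% of all genes. The other components Pdha1 (0.51, adjusted p = 0.0965), Dlat (0.09, adjusted p = 0.662) and Dld (-0.30, adjusted p = 0.0934), given as log2 fold changes and chosen after their values were seen, did not pass. Dld too had every Sirt6-KD library below every control. Pdp1, likewise chosen and not called (0.49, adjusted p = 0.107), had every Sirt6-KD library above every control, as did 14.8% of all genes.

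Side routes of glucose also held called genes. Of 8 glycogen genes tested, all 8 changes were above 0, as were 49.1% of those of all genes, and 3 genes were called higher, beside 8.02% of all genes: Gys1, the muscle-type glycogen synthase (339 ± 103 to 532 ± 39.2 CPM, log2 fold change 0.65, adjusted p = 0.0428), Gbe1, the branching enzyme (103 ± 44.0 to 192 ± 18.9 CPM, 0.89, adjusted p = 0.0313), and Pygl, a glycogen phosphorylase (198 ± 59.4 to 432 ± 30.6 CPM, 1.12, adjusted p = 0.00537). The called genes thus code for enzymes of both synthesis and breakdown. In the pentose phosphate pathway, with 7 tested, H6pd, the glucose 6-phosphate dehydrogenase of the endoplasmic reticulum, rose (39.3 ± 16.4 to 78.0 ± 1.55 CPM, log2 fold change 0.99, adjusted p = 0.0233) and Taldo1, the transaldolase, fell (285 ± 84.3 to 132 ± 19.8 CPM, log2 fold change -1.11, adjusted p = 0.00810). Of 3 gluconeogenesis genes tested, Pc, which codes for pyruvate carboxylase, rose (40.7 ± 3.72 to 71.0 ± 7.13 CPM, log2 fold change 0.80, adjusted p = 0.00498).

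Among 14 regulators other than Sirt6, 3 were called higher and none lower, beside 8.02% and 10.7% of all genes. Arnt, the partner subunit of the HIF proteins, rose from 27.2 ± 4.24 to 43.0 ± 4.29 CPM (log2 fold change 0.66, adjusted p = 0.0183). Mlxip, a glucose-sensing transcription factor, rose from 11.1 ± 3.41 to 19.0 ± 2.23 CPM (log2 fold change 0.78, adjusted p = 0.0421), and Myc rose from 98.4 ± 25.5 to 158 ± 24.8 CPM (log2 fold change 0.69, adjusted p = 0.0324). Hif1a, chosen after its values were seen, was at 138, 188, 303 and 223 CPM in S1 to S4 and at 289.9 to 373 CPM in Sirt6-KD, with S3 inside the Sirt6-KD range (log2 fold change 0.63, adjusted p = 0.0625). Egln3, a HIF hydroxylase that HIF itself induces and likewise chosen after its values were seen, was at 144, 201, 225 and 31.2 CPM in S1 to S4 and at 224 to 316 CPM in Sirt6-KD (log2 fold change 0.90, adjusted p = 0.174). S3 was thus the highest and S4 the lowest control for Egln3, the same order as for Slc2a1. Txnip, a brake on glucose uptake, did not pass (log2 fold change -0.14, 95% interval -1.14 to 0.85, adjusted p = 0.850). This is RNA, whereas the study reported more TXNIP protein in Sirt6-KD NP cells by immunoblot.

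Of these 16 called genes, the calls of Tigar, Pdhb, Mpc1, Taldo1, Pc and Pygl held with any 1 library left out. The others were lost without at least 1 library. For Bpgm this was S6 or S7 (adjusted p 0.0543 and 0.0526), for Arnt and Emb S5, S6 or S7 (0.0583 to 0.0682 and 0.0645 to 0.0768), for Gbe1 these and S1 (0.0790 to 0.0885), and for Pdhx S1, S6, S7 or S8 (0.0642 to 0.0742). For H6pd it was S1 or any Sirt6-KD library (0.0537 to 0.0690), for Gys1 these and S4 (0.0583 to 0.108), and for Slc16a7 and Mlxip any library other than S3 (0.0620 to 0.109 and 0.0562 to 0.125). Myc was lost without any library other than S3 and S8 (adjusted p 0.0489 to 0.0980), without S4 because its log2 fold change came to 0.54.

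**Figure D5:**
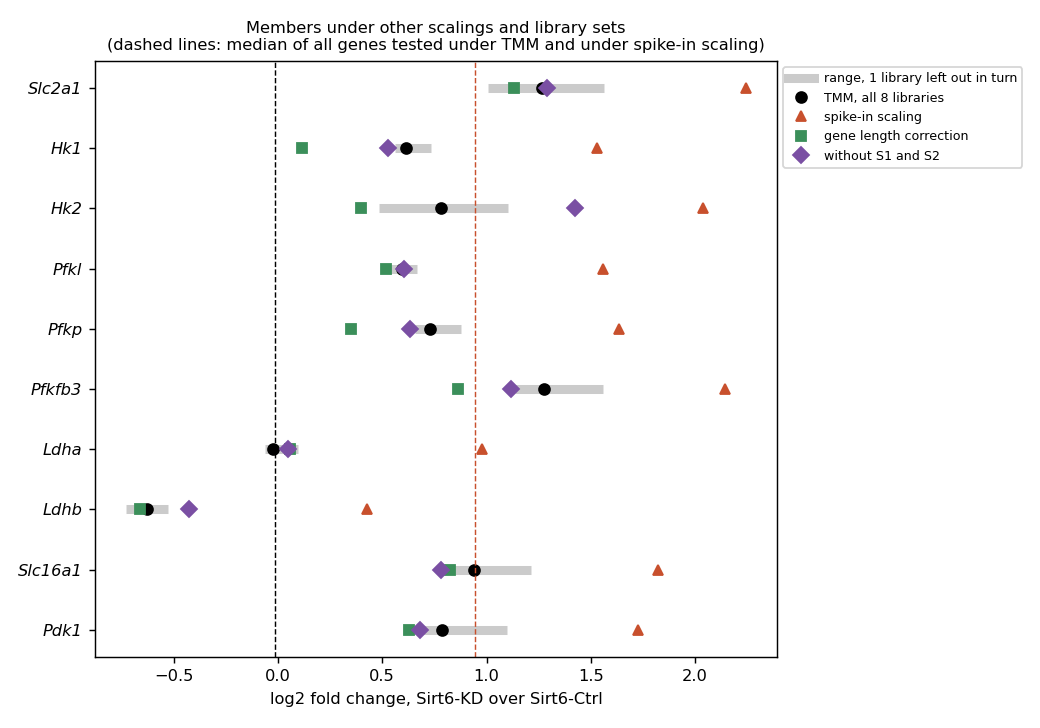
Change in Sirt6-KD relative to Sirt6-Ctrl (x axis, log2 fold change) of each of the 10 genes with all 8 libraries and TMM scaling (circles), with spike-in scaling (triangles), with a correction for gene length (squares) and without S1 and S2 (diamonds), grey bars giving the range with 1 library left out in turn and dashed lines the median of all genes under TMM (-0.02) and spike-in scaling (0.94). Pfkfb3 and Slc2a1 stay at 0.86 or above, while Ldhb lies above 0 only with spike-in scaling (0.42).

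The direction of some changes, called ones among them, depended on the reference for scaling. Scaling each library to its spike-in counts moved the median of all genes to 0.94 and that of the 10 genes to 1.68, so that the 10 genes lay 0.74 above all genes, beside 0.77 in the fit reported here. With that scaling no member was called, beside 0.151% of all genes called higher and 0.0302% called lower. Ldhb was at 0.42 and Ldha at 0.98. Sirt6 itself was not called (-0.36, or -1.31 relative to the median of all genes, adjusted p = 0.567). Pdhx (0.18), Mpc1 (0.26) and Taldo1 (0.037), called lower in the fit reported here, were also above 0 with spike-in scaling. Correcting each library for gene length moved the median of all genes to -0.14. It left 3 members called higher and none called lower, beside 4.87% and 12.6% of all genes, with Hk1 at 0.12 and Pfkp at 0.35. Tested against a 1.5-fold change itself, in place of a change of any size, none of the 10 genes passed. Of all genes, 0.694% were called higher and 1.4% lower in this test. Among the 10, Pfkfb3 came nearest in it (adjusted p = 0.0597). Without S1 and S2, the controls with the most spike-in RNA, Pfkl, Pfkp, Pfkfb3 and Hk2 were called higher, beside 5.71% of all genes. The calls of Slc2a1 (1.29, adjusted p = 0.0804), Slc16a1 (0.78, adjusted p = 0.0811), Hk1 (0.53, under the fold threshold, adjusted p = 0.0456) and Ldhb (-0.43, adjusted p = 0.131) were lost with 2 controls left.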

How the data were processed

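RNA-seq of 8 libraries of primary rat NP cells was analysed, 4 of Sirt6-Ctrl and 4 of Sirt6-KD, grouped by the genotype in the labels. Raw read counts for each Ensembl gene and ERCC spike-in were deposited by the authors, and their processing notes name Trimmomatic 0.36, STAR 2.5.2b, featureCounts, Subread 1.5.2 and DESeq2, with the build Rnor_6.0. The use of strand and the treatment of reads with several matches are not given in the sources used here. A further table deposited by the authors holds a signal per library, which is the counts divided by 1 size factor, and their own comparison as log2 fold changes and p-values. From it the gene names alone were used, and it lists the rows whose counts sum to 81 or more.

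Levels and tests were computed from the counts with edgeR 4.0.16 in R 4.3.3 (filterByExpr, TMM, glmQLFit and glmQLFTest, two-sided, no covariate), with Benjamini-Hochberg adjustment over 13313 rows, of which 63 were spike-ins left out of the gene counts. Calls needed an adjusted p under 0.05 together with a fold change of more than 1.5, as in the study's figure legends. Depth was 31994838 to 40124813 counts a library, and the 3-count floor covers counting error only, since the reads carry no molecular identifiers and are not independent. No 2 libraries of a group agreed within sampling noise (chi-square per degree of freedom 110 to 397 in Sirt6-Ctrl and 17.7 to 69.1 in Sirt6-KD). Rows with no gene name among those tested numbered 72. Read shares within 6 families were compared by an exact permutation test, two-sided.

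The members and gene lists were chosen with earlier results of these data known. The genes named are Sirt6, the 10 members, the relatives Slc2a3, Pfkm, Pfkfb4, Slc16a3, Pdk2, Pdk3 and Pdk4, and every called gene of the pathway lists, and exceptions are marked where they occur. Promoter windows were matched by symbol in a RefSeq table for GRCr8, 11 windows for 10 genes. No transcript lengths were used, so levels are not compared between genes. The scripts were tested on simulated data. The alternatives were other scalings, filters, tests (DESeq2 1.42.0, limma-voom of limma 3.58.1, glmTreat of edgeR), each library left out in turn, S1 and S2 left out, and a loess correction (span 0.5) for gene length, taken as the span of the gene on GRCr8 for 89.3% of the genes tested.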

Additional observations from a re-analysis of the deposited data

Results flagged for a closer look

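A library was picked out here when its gap to the nearest other library of its group, divided by the range of the group, exceeded Dixon's critical value for 4 libraries. Of 80 groups examined 7 had such a library, where chance gives about 4. S8 was the lowest Sirt6-KD library, apart from the other three, for Pfkfb3 (gap over range 0.889, 531 CPM against 662 to 679), Pdk1 (0.858, 167 CPM against 198 to 203) and Pfkp (0.847, 269.7 CPM against 304 to 310.0). The glycogen branching enzyme gene Gbe1 had S8 lowest as well (0.846, 163 CPM against 198 to 204). S3 was the highest Sirt6-Ctrl library for Mlxip (0.908, 16.2 CPM against 8.99 to 9.65) and for Pfkfb4 (0.884, 7.04 CPM against 0.804 to 1.53). S5 had the highest Ldhb share of lactate dehydrogenase reads in Sirt6-KD (0.833, 0.378% against 0.351 to 0.355%). The wide Sirt6-Ctrl groups of Hk2 and Slc2a1 held no library past the critical value.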

How the results depend on the processing

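No paired analysis was possible because the labels and count columns carry no number that ties a Sirt6-KD library to a Sirt6-Ctrl library. Of 712 values of named genes under the alternatives, 548 kept their direction and side of the threshold, 140 lost the call, 7 gained it and 17 changed sign. Ldha, near 0, changed sign with upper-quartile scaling (0.018), library size alone (0.071), spike-in rows removed (0.0054), no filter (0.013), a stricter filter (0.055), without S1 and S2 (0.046), with the gene length correction (0.057) and without S2 (0.098), with a range of -0.062 to 0.098 when 1 library was left out. With spike-in scaling, Ldha (0.98), Ldhb (0.42), Pdk2 (0.39), Pdhx (0.18), Mpc1 (0.26) and Taldo1 (0.037) were above 0. Slc16a3 was at -0.099 without S1 and S2 and at -0.16 with the gene length correction, where Pdk3 was at -0.26. The difference in the Hk2 share was -0.58 points without S4, giving a range of -0.58 to 10.5 points with 1 library left out, and 17.0 points without S1 and S2.

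No member was called lower with library size alone, no filter, a stricter filter, spike-in scaling, glmTreat, the gene length correction or without S1 and S2 (0 in each). Spike-in scaling called 20 genes higher and 4 lower of all genes, with 0 members and 0 other pathway genes called in either direction and a members' median of 1.68. A test against the fold threshold called 92 genes higher and 185 lower, with 0 members and 0 pathway genes. Without S1 and S2, 5.71% of all genes were higher and 709 genes (5%) lower, with 4 members and 5 pathway genes higher. The gene length correction gave 645 genes higher, 3 members higher with a median of 0.46, and 3 pathway genes higher. It called 4.87% of genes higher and 12.6% lower, and limma-voom 12% and 9.88%, against 8.02% and 10.7%. DESeq2 called 8.49% of 18758 genes higher and 9.19% lower. DESeq2 and limma-voom each called 7 members higher, the added gene being Pdk1. With 1 library left out in turn, 445 to 1699 genes were higher and 700 to 1913 lower, 3 to 7 members higher and 0 to 1 lower, with a median of 0.58 to 0.85, and 2 to 16 pathway genes higher and 4 to 8 lower. Members called higher came to 3 without S1, S5 or S6, to 4 without S4 or S7, and to 7 without S3. The causes of these shifts were not tested.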
